A study of Mus musculus with 6 samples.

Results

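Transcripts of 34 genes of fatty acid oxidation and ketone body metabolism were followed in mouse liver with and without Dicer in hepatocytes. The genes were taken by symbol from a written list of pathway enzymes, drawn up with earlier results of these data known, and all 34 were found among the 50600 genes of each table. By the compartment assigned from general knowledge, 20 products act in mitochondria, 10 in peroxisomes, 2 in ketone body metabolism (Bdh1 and Acat1, themselves mitochondrial), 1 in the cytosol (Acot1) and 1 at the cell surface (Vnn1). Whole liver was profiled by RNA sequencing at 1 month after birth in C57BL/6 mice. Both groups carried the Dicer loxp/loxp alleles. The 3 Dicer LKO libraries carried Alb-cre in addition, a recombinase under the albumin promoter that acts in hepatocytes, while the 3 control libraries are labelled with the loxp alleles alone. The series' design text calls the controls wild-type. Dicer remains intact in liver cells without albumin promoter activity, and bulk tissue was sequenced. Fewer cells of a type and less RNA per cell therefore cannot be told apart in any value below. The labels do not say whether each library came from its own animal, so every p-value here reflects scatter among the libraries, part of which may be technical.

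Fatty acids are burned in the liver by repeated removal of acetyl units. Long chains are loaded on carnitine to cross into mitochondria, and each turn of the spiral then runs through a dehydrogenase, a hydratase, a second dehydrogenase and a thiolase. Very long and branched chains are shortened first in peroxisomes. During fasting and suckling much of the acetyl-CoA is made into ketone bodies for other organs. The nuclear receptor PPAR alpha is the best known activator of many of these genes.

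Across the 34 genes no difference between the groups passed the test. Levels varied between libraries of the same genotype, and for most members the groups overlapped. The fold change was estimated with edgeR's quasi-likelihood test over 14314 genes, where a gene was called if its p, adjusted by Benjamini-Hochberg, was under 0.05. The test called 0 of 34 members, beside 1.29% of all genes tested (185 genes, of which 106 were higher and 79 lower in Dicer LKO). At an unadjusted p under 0.05 there were 3 members (Vnn1, Acot2 and Eci2), against a background of 21.0% of all genes. DESeq2 and limma voom (with sample weights) also called 0 members, though DESeq2 gave no p for Pdk4. At an unadjusted p under 0.05 they had 4 and 9 members, beside 13.3% and 25.4% of all genes. The DESeq2 share is over 23552 genes, without a filter on low counts, and so is not directly comparable with the other shares. All libraries of a group lay on the same side of all libraries of the other, in CPM (counts scaled by library size), for 5 members. Those were Eci2, Etfdh, Acot2 and Vnn1 on the higher side and Acadl on the lower side. The background share of genes with such separated groups was 28.0%.

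The differences themselves were small for most members. Of the 34 log2 fold changes, Dicer LKO over control, 30 lay within 0.5 of 0, and the median size was 0.13, against 0.26 over all genes tested. Values ran from −1.19 for Acaa1b to 0.97 for Crat, with a median of 0.09 beside −0.01 over all genes. With TMM scaling 21 members had positive and 13 negative values. That balance depended on the scaling, since 13 were positive with library totals and 14 on the log2(TPM + 1) scale, where the median of all genes itself moved to −0.13 and −0.09. The 95% interval of the fold change stayed within 2-fold in either direction for 26 members, or 76.5%, and for 61.8% of all genes. A change of 2-fold or more thus lay outside the interval for those 26. The intervals of Crat, Acaa1b, Acot1, Acot2, Acot3, Acot4, Pdk4 and Vnn1 reached beyond 2-fold. Apart from Acaa1b, those genes had mean levels below 10 TPM, a unit that corrects for gene length and is used here to compare levels between genes. The comparisons with all genes were not matched for level. The median standard error (SE) was 0.19 for the members and 0.22 over all genes tested.

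**Figure D1:**
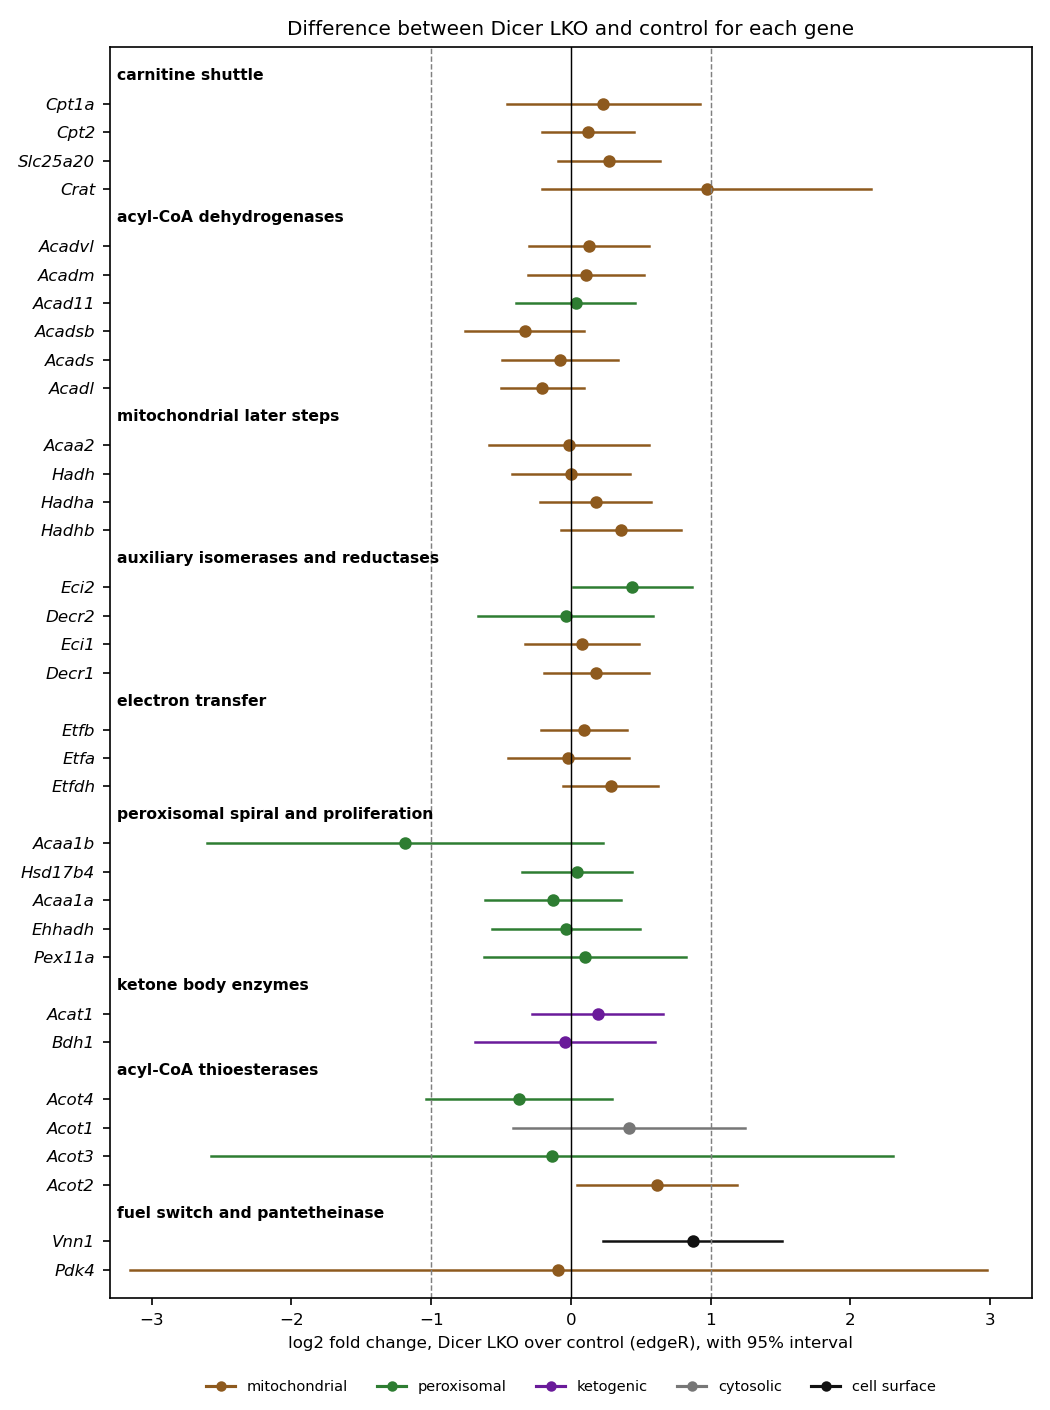
Log2 fold change of each member, Dicer LKO over control, with its 95% interval (edgeR, 3 libraries a group), ordered by role and coloured by compartment. The dashed lines mark 2-fold in each direction. Intervals of 26 members lie between the dashed lines, and those of Pdk4 and Acot3 are the widest.

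Several facts of the libraries bear on every value. Dicer1 measured 2.03, 2.03 and 1.77 TPM in Dicer LKO against 3.22, 5.02 and 4.38 TPM in the controls, so that every Dicer LKO library lay below every control (log2 fold change −0.99, SE 0.20, adjusted p = 0.0622 by edgeR). Totals ran from 14141973 counts in control replicate 3 to 25049749 in Dicer LKO replicate 3. The 9 skeletal muscle markers of a written list summed to 1052 TPM in control replicate 3 and to between 0.37 and 1.91 TPM in the other libraries. The mitochondrial genome took 10.2% of counts in that library and 4.62% to 6.46% in the others. Fast muscle myosin Myh4 was at 61.0 TPM in control replicate 3 and at 0.01 TPM or less elsewhere. Hepatocyte markers were abundant in all libraries, and their sum over 8 genes was 24522 to 41597 TPM in the controls and 45539 to 55418 TPM in Dicer LKO. Their median log2 fold change was −0.01, with 7 of the 8 within 0.5 of 0, and the exception was Trf, the gene of transferrin, on the higher side (not called). Of markers of other cells, 6 of 7 tested erythroid genes, 3 of 8 bile duct genes, 2 of 10 stellate cell and fibroblast genes, 1 of 9 endothelial genes and 0 of 11 macrophage genes were called higher. Summed erythroid markers stood at 1787 to 3500 TPM in Dicer LKO and 367 to 535 TPM in the controls, and summed bile duct markers at 77.3 to 154 and 20.4 to 27.9 TPM. Summed stellate cell and fibroblast markers stood at 134 to 168 and 99.8 to 111 TPM, endothelial markers at 105 to 112 and 72.2 to 91.5 TPM, and macrophage markers at 229 to 294 and 119 to 258 TPM. Of these 5 lists, all but the macrophage list had higher sums in every Dicer LKO library than in every control. The heart muscle markers Myl2, Mb and Nppa were listed at 0 in Dicer LKO replicates 1 and 2 and were present in the other 4 libraries. The heart muscle list, which shares genes with skeletal muscle, summed to 427 TPM in control replicate 3, to 15.9 and 14.8 TPM in the other controls and to 2.59 to 15.1 TPM in Dicer LKO. The fat list summed to 135 TPM in control replicate 3, to 6.70 and 25.7 TPM in the other controls and to at most 7.74 TPM in Dicer LKO. The part that these shifts in tissue makeup play in the members' values was not tested.

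Among the members Acaa2 had the highest mean level (253 TPM over the 6 libraries) and Acot2 the lowest (1.24 TPM). The 34 genes summed to 1999, 1534 and 1990 TPM in Dicer LKO and to 2366, 1639 and 1953 TPM in the controls, about 0.191% of all transcripts. The sums overlapped, with means of 1841 ± 266 and 1986 ± 365 TPM (SD, n = 3 each). The mitochondrial genes summed to 97.1% of the control mean, the ketone body pair to 98.1% and the peroxisomal genes to 80.7%. Acaa1b, described below, held the largest share of the peroxisomal sum in the controls. Single libraries shared much of the variation. Dicer LKO replicate 2 was the lowest library of its group for 20 of 34 members in CPM and 24 in TPM. Control replicate 2 was the lowest of all 6 libraries for 17 members in CPM and 15 in TPM, and control replicate 1 the highest of all 6 for 15 and 22.

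**Figure D2:**
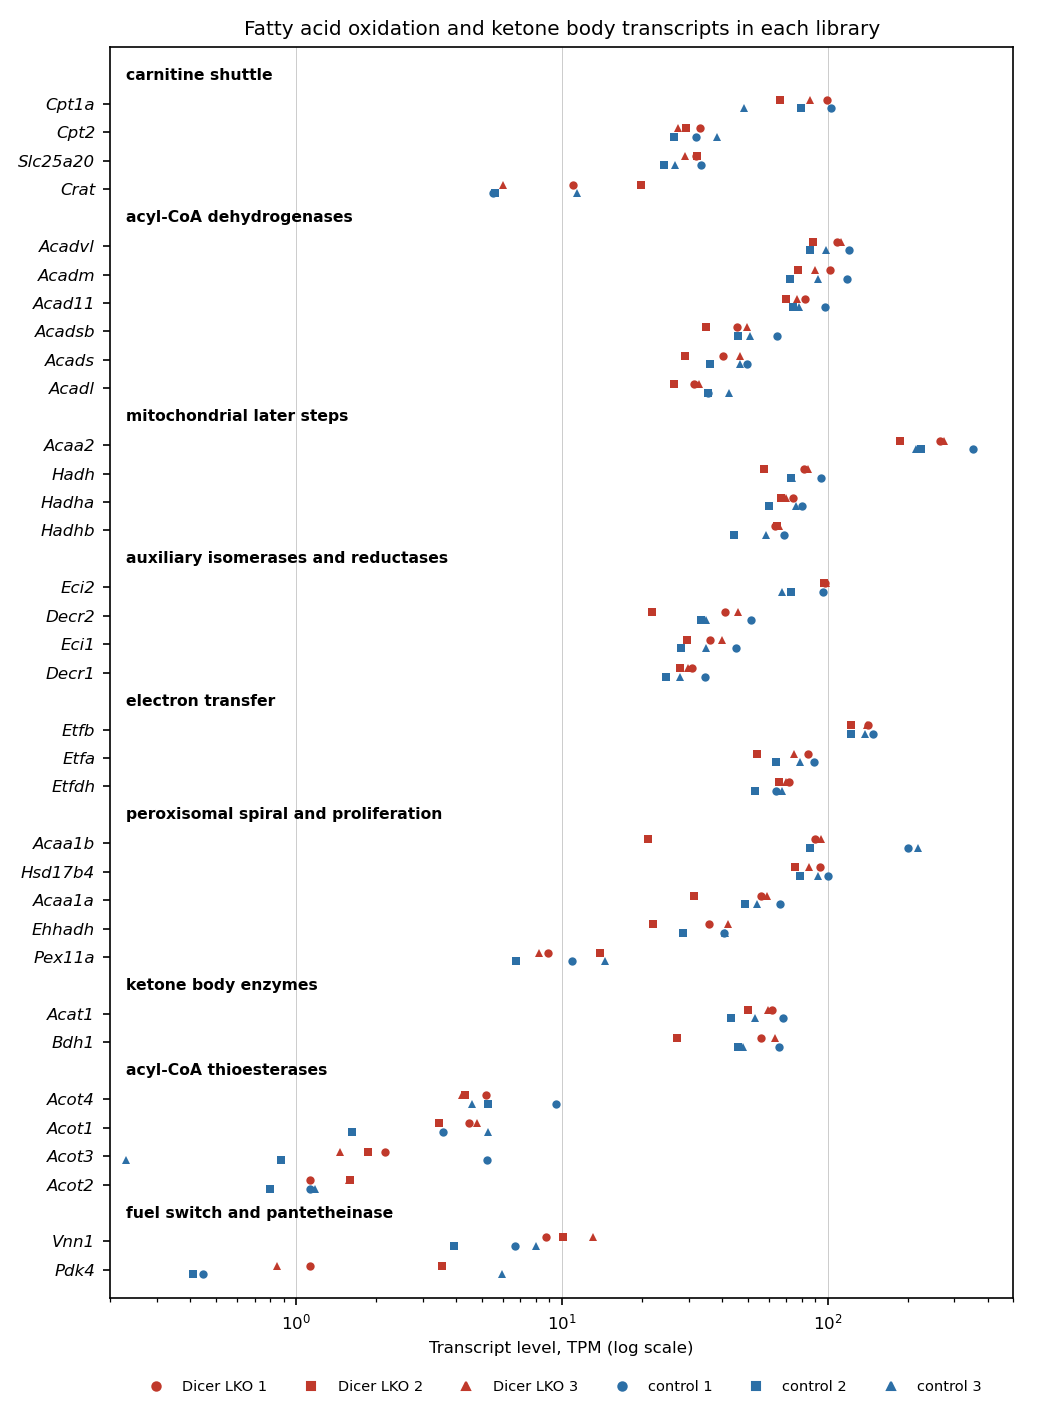
Level of each member in each library, in TPM on a log axis, ordered by role and then by mean level, with Dicer LKO in red and controls in blue. The groups overlap for most members, and levels span from below 1 TPM for Pdk4 and Acot3 to above 200 TPM for Acaa2.

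**Figure D3:**
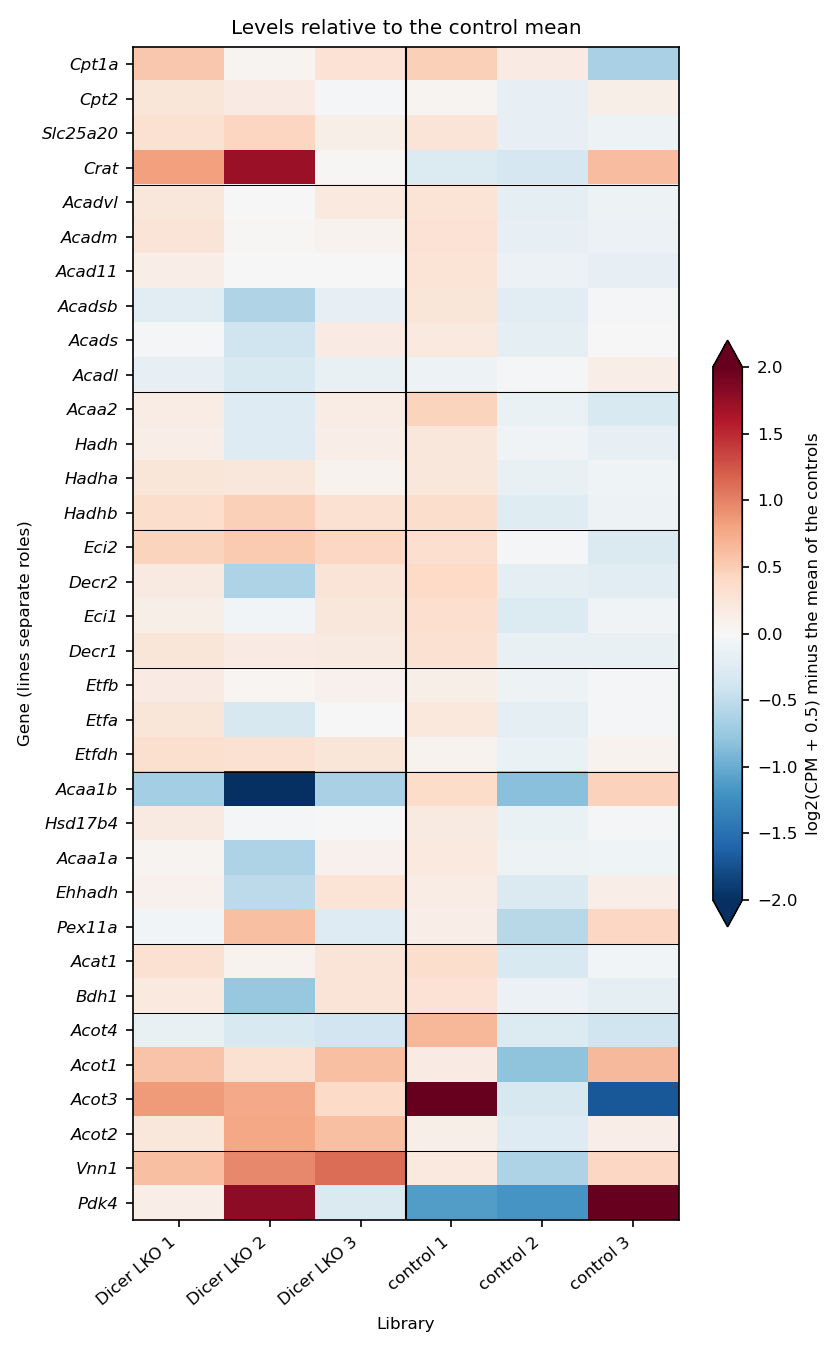
Level of each member in each library as log2(CPM + 0.5) minus the mean of the controls, on a colour scale that ends at −2 and 2. Acaa1b is darkest blue in Dicer LKO replicate 2, and Pdk4 and Acot3 show the widest spread within the controls.

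Entry of fatty acids into mitochondria was covered by 4 genes of the carnitine shuttle. Cpt1a (chromosome 19, 3322334 to 3385733, plus strand, GRCm38) encodes the liver carnitine palmitoyltransferase that loads long chains on carnitine and is the main control point of the path. Its level was 99.1, 66.0 and 86.1 TPM in Dicer LKO and 103, 79.1 and 48.3 TPM in the controls. The controls spanned the whole range of the Dicer LKO libraries, and control replicate 3 was the lowest of all. The log2 fold change was 0.23 (95% interval −0.46 to 0.92, adjusted p = 0.704 by edgeR). With each library left out in turn it ran from −0.004, without control replicate 3, to 0.49, without control replicate 1. Slc25a20, the carrier that swaps acylcarnitine for carnitine across the inner membrane, had a value of 0.27, and Cpt2, which returns the chain to coenzyme A, one of 0.12. The value of Cpt2 turned negative with library totals and on the log2(TPM + 1) scale (−0.09).

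Crat, which makes and uses acetylcarnitine, had the largest positive value of the list and is described because of it, as a choice made after its values were seen. It was at 11.0, 19.9 and 6.00 TPM in Dicer LKO and at 5.50, 5.61 and 11.4 TPM in the controls. Dicer LKO replicate 2 stood highest, while Dicer LKO replicate 3 lay near the lower controls, and control replicate 3, the library with muscle transcripts, was above the other controls. This gave a log2 fold change of 0.97 (SE 0.49, adjusted p = 0.314 by edgeR), falling to 0.45 without Dicer LKO replicate 2 and reaching 1.37 without control replicate 3. Crat overlaps Dolpp1 and Gm16323 on the opposite strand, and without a known strand setting reads of these genes cannot be told apart.

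The first step inside the mitochondrion is taken by acyl-CoA dehydrogenases that differ in chain length. Acadvl acts on very long, Acadl on long, Acadm on medium and Acads on short chains, Acadsb on short branched chains, and Acad11 is a peroxisomal relative. None of the 6 was called, all 6 intervals stayed within 2-fold, and the values ran from −0.33 for Acadsb to 0.13 for Acadvl with a median of −0.02. Acadl was the member on the lower side with separated groups. It was at 31.6, 26.6 and 32.9 TPM in Dicer LKO and at 35.4, 35.6 and 42.6 TPM in the controls. Its log2 fold change of −0.21 had an interval of −0.50 to 0.09 (adjusted p = 0.404 by edgeR).

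The later steps were measured through Acaa2, Hadh, Hadha and Hadhb. Acaa2 encodes the mitochondrial thiolase, which splits off acetyl-CoA. It was at 265, 188 and 275 TPM in Dicer LKO and at 352, 225 and 215 TPM in the controls, ranking 210th of all genes by mean level. Control replicate 1 was at the top of the overlapping groups, and the log2 fold change was −0.01 (interval −0.59 to 0.56). For Hadh, a dehydrogenase for short chains, it was 0.002.

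Hadha and Hadhb encode the paired subunits of the mitochondrial trifunctional protein, which carries out the last steps on long chains. Their genes lie head to head on chromosome 5, and the RefSeq start sites at 30154980 and 30155253 are 273 bases apart. The window of 250 bases before to 50 after the Hadhb start (GRCm38.p6, chr5:30155003-30155302, plus strand, from RefSeq) is printed because a stretch of it, in capitals, also belongs to the window of Hadha. The shared stretch of 228 bases runs from 30155003 to 30155230.
Hadhb promoter: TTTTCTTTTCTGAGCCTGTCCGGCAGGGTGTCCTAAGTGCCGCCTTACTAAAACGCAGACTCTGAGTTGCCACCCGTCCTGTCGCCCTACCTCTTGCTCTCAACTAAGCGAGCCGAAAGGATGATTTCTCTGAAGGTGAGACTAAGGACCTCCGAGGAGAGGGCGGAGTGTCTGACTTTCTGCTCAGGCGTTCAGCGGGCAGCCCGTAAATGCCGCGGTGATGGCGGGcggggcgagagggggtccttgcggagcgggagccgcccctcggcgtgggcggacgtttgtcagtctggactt
No TATAAA occurs in either window, and GGGCGG, searched on both strands, occurs in both. Hadha was at 74.1, 66.7 and 69.8 TPM in Dicer LKO and at 80.3, 60.0 and 76.4 TPM in the controls. Hadhb was at 63.3, 64.8 and 65.7 TPM in Dicer LKO and at 68.6, 44.5 and 58.9 TPM in the controls. In TPM both genes were highest in control replicate 1 and lowest in control replicate 2, and for both the Dicer LKO libraries lay inside the range of the controls. The ratio of Hadha to Hadhb was 1.17, 1.03 and 1.06 in Dicer LKO and 1.17, 1.35 and 1.30 in the controls. The log2 fold changes were 0.18 (interval −0.22 to 0.57) and 0.36 (−0.07 to 0.79). The values of this pair, like those of Eci2 and Pdk4 below, are given in full as a choice made after they were seen.

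Unsaturated chains need auxiliary enzymes, of which Eci1 and Decr1 act in mitochondria and Eci2 and Decr2 are counted here as peroxisomal. Eci2, an isomerase that moves a bond of the chain into place, was at 98.1, 96.8 and 98.9 TPM in Dicer LKO and at 96.0, 73.0 and 67.6 TPM in the controls. The Dicer LKO libraries were nearly equal and just above the highest control, and the other controls lay lower. Its log2 fold change was 0.44 (interval 0.02 to 0.86, adjusted p = 0.223 by edgeR). Values of Decr1, Eci1 and Decr2 were 0.18, 0.08 and −0.04.

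Electrons from the dehydrogenases pass to the electron transfer flavoprotein, a dimer of the Etfa and Etfb products, and on to its dehydrogenase, Etfdh. Etfb, the second most abundant member, was at 142, 122 and 140 TPM in Dicer LKO and at 148, 123 and 138 TPM in the controls. The groups spanned nearly the same range, and the log2 fold change of 0.09 had an interval of −0.22 to 0.40 (adjusted p = 0.735 by edgeR). Etfa had a value of −0.02. For Etfdh, whose groups were separated in CPM, the value was 0.28 (interval −0.05 to 0.62). In TPM its groups overlapped, with Dicer LKO replicate 2 at 65.6 and control replicate 3 at 67.3 TPM. The Etfb gene holds Gm45233, Gm44816 and Mir7051 on the same strand, so some of its reads may be shared. Annotated genes on the same strand also overlap Etfdh (Gm37973), Acadl (Gm15793), and Acot3 and Acot4 (Gm49366). Some other members have overlaps that are not named here.

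In peroxisomes a bifunctional enzyme, encoded by Ehhadh or Hsd17b4, is followed by the thiolases of Acaa1a and Acaa1b, while Pex11a takes part in the division of peroxisomes. Acaa1b had the most negative value of the list. It was at 89.3, 21.1 and 94.8 TPM in Dicer LKO and at 201, 85.8 and 218 TPM in the controls. Dicer LKO replicate 2 was far below all other libraries, control replicate 2 lay just below the other Dicer LKO libraries, and the remaining controls were the highest. The log2 fold change was −1.19 (SE 0.59, interval −2.60 to 0.23, adjusted p = 0.308 by edgeR). With each library left out in turn it ran from −1.48, without control replicate 2, to −0.73, without Dicer LKO replicate 2, and with both Dicer LKO replicate 2 and control replicate 3 left out, a choice added after the data were seen, it was −0.56. With voom sample weights it was −0.60. Ehhadh, Hsd17b4, Acaa1a and Pex11a had values between −0.13 and 0.10.

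Acaa1a and Acaa1b share 96.5% of their 1275 coding bases, with an identical run of 327 bases, so the split of reads between them is uncertain. Dlec1 also overlaps Acaa1b on the opposite strand. Both genes lie on chromosome 9 (Acaa1b at 119148023 to 119157093, minus strand). Acaa1b made up 61.4%, 40.1% and 61.6% of the summed TPM of the pair in Dicer LKO and 75.2%, 63.6% and 80.0% in the controls. The shares in the Dicer LKO libraries were all below those in the controls, with a narrow gap between 61.6% and 63.6%. The promoter windows of the pair (RefSeq, GRCm38.p6, chr9:119341044-119341343, plus strand, and chr9:119157044-119157343, minus strand) are printed because the near-identical coding parts sit behind windows whose letters differ. Capitals mark CCAAT read on either strand.
Acaa1a promoter: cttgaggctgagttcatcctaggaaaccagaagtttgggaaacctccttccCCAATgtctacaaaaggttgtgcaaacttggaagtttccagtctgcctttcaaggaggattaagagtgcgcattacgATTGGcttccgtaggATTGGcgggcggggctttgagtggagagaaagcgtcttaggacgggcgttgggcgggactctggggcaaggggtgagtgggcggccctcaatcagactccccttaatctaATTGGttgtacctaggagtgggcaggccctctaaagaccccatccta
Acaa1b promoter: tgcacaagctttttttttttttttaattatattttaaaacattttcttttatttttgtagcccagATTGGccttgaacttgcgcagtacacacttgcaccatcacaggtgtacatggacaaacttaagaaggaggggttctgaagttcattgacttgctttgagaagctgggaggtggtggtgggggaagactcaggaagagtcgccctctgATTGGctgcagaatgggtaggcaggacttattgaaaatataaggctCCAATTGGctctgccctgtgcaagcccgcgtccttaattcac
Each window holds 4 CCAAT matches, and those nearest the start of Acaa1b overlap each other on opposite strands. Acaa1a was at 56.2, 31.6 and 59.2 TPM in Dicer LKO and at 66.3, 49.1 and 54.4 TPM in the controls. Like Acaa1b it was lowest in Dicer LKO replicate 2. Its log2 fold change was −0.13 (interval −0.62 to 0.36).

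**Figure D4:**
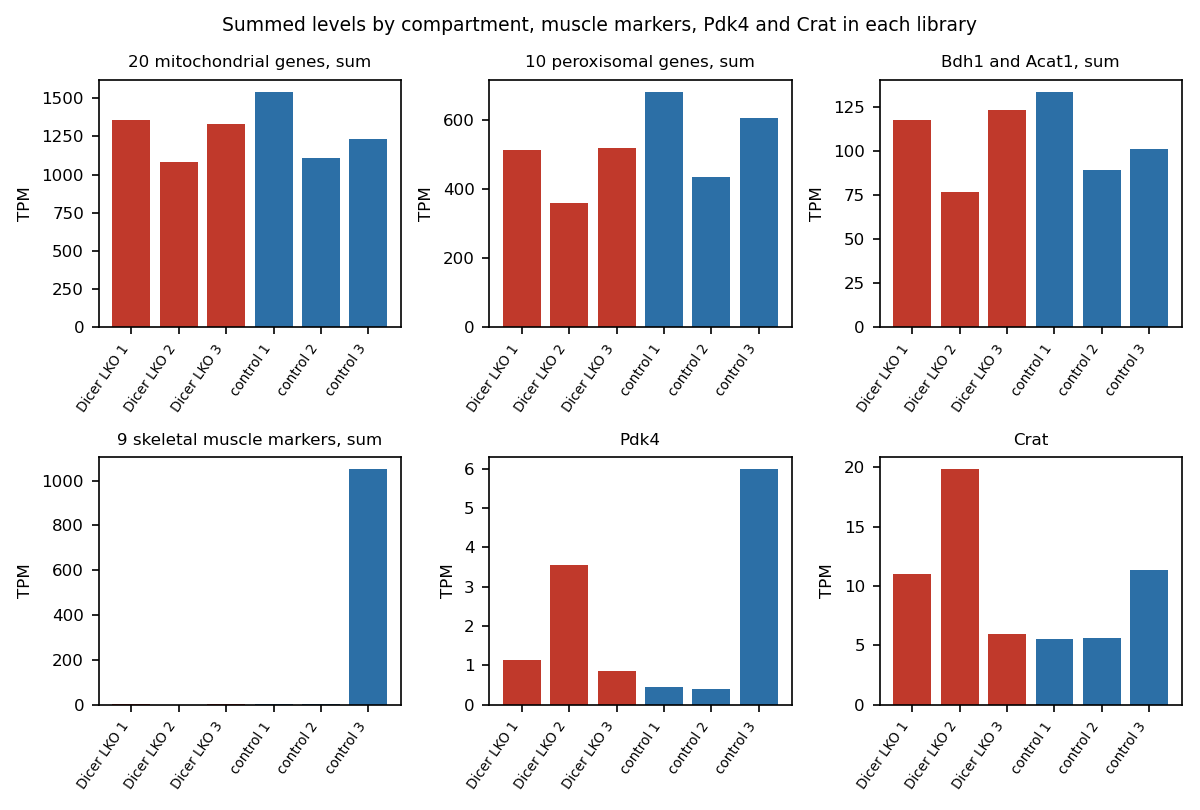
Bars give TPM in each library, with Dicer LKO in red and controls in blue, for the summed mitochondrial, peroxisomal and ketone body genes, for 9 summed skeletal muscle markers and for Pdk4 and Crat. The muscle markers stand at 1052 TPM in control replicate 3 and near 0 elsewhere, and Pdk4 is also highest in that library.

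Among 30 promoter windows matched to 28 of the members, GGGCGG occurred in 20, beside 35.7% of 32851 windows of all genes, and TATAAA in 1 (Acot4), beside 13.6%. CCAAT occurred in 16 windows, beside 37.4%. AGGTCA, the hexamer that PPAR alpha and its partner bind as a spaced repeat, occurred in 6 windows of 5 genes (Acadm, Acadvl, Acot3, Acot4 and Cpt1a), beside 16.3%. The full repeat AGGTCANAGGTCA occurred in 0 of the 30, as in nearly all windows (0.0396% held it). All motifs were searched on both strands. Windows of Acaa2, Decr1, Crat, Hsd17b4, Acat1 and Vnn1 were not used here.

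Ketone bodies were represented by Acat1, a thiolase that joins acetyl units, and Bdh1, which converts acetoacetate to 3-hydroxybutyrate. Bdh1 was at 56.2, 27.1 and 63.4 TPM in Dicer LKO and at 65.8, 45.9 and 48.0 TPM in the controls. Dicer LKO replicate 2 was the lowest library and the others overlapped. Its log2 fold change was −0.04 (interval −0.69 to 0.60, adjusted p = 0.947 by edgeR). Acat1 was at 61.7, 50.1 and 59.8 TPM in Dicer LKO and at 68.1, 43.4 and 53.5 TPM in the controls, again overlapping, with a value of 0.19 (interval −0.28 to 0.66, adjusted p = 0.636). In a companion list of 6 other ketone body genes 0 were called, beside 1.29% of all genes. Only 2 of these 6 intervals stayed within 2-fold, beside 61.8% of all genes. In 2 of the 6 the groups were separated in CPM, beside 28.0%.

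Acyl-CoA thioesterases free fatty acids from coenzyme A. Acot1 is cytosolic, Acot2 mitochondrial, and Acot3 and Acot4 peroxisomal, and the 4 genes stand in a cluster of 72.5 kb on chromosome 12. Acot2 was at 1.13, 1.60 and 1.59 TPM in Dicer LKO and at 1.13, 0.80 and 1.18 TPM in the controls. In TPM the groups overlapped, since control replicate 3 lay above Dicer LKO replicate 1. In CPM (3.35, 5.10 and 4.50 against 3.06, 2.26 and 3.12) they were separated by a narrow gap. The log2 fold change was 0.62 (SE 0.25, interval 0.04 to 1.19, adjusted p = 0.211 by edgeR), from 47 to 113 counts a library. Acot1 and Acot2 share 95.5% of aligned coding bases with an identical run of 273 bases, so reads may be split between them. Summed, the pair was at 5.63, 5.05 and 6.40 TPM in Dicer LKO and at 4.71, 2.43 and 6.46 TPM in the controls, and these sums overlapped. Acot3 ranged from 0.23 to 5.24 TPM within the controls alone, and its value of −0.14 became 1.81 without control replicate 1. Acot4 had a value of −0.37.

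Vnn1 and Pdk4 stand beside the spiral itself. Vnn1 encodes pantetheinase, a membrane-anchored enzyme that recycles pantothenate, the precursor of coenzyme A. It was at 8.77, 10.1 and 13.2 TPM in Dicer LKO and at 6.70, 3.95 and 7.98 TPM in the controls. All 3 Dicer LKO libraries were above all controls, with a small gap between Dicer LKO replicate 1 and control replicate 3. The estimated log2 fold change was 0.87 (SE 0.28, interval 0.23 to 1.51), a fold of 1.83. With an unadjusted p of 0.0143 and an adjusted p of 0.141 by edgeR it had the lowest p of the list and missed the threshold. Its value stayed between 0.63 and 1.12 in the 14 alternatives, with adjusted p-values from 0.0522 to 0.310.

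Pdk4 encodes a kinase that shuts pyruvate dehydrogenase and so spares glucose when fat is burned. It was at 1.13, 3.54 and 0.85 TPM in Dicer LKO and at 0.45, 0.41 and 5.99 TPM in the controls. Control replicate 3, where skeletal muscle markers summed to 1052 TPM, was the highest, while the other controls were below every Dicer LKO library. With all libraries the log2 fold change was −0.09 (interval −3.15 to 2.97). Without Dicer LKO replicate 2 it was −1.03, and without control replicate 3 it was 2.25 (adjusted p = 0.255 by edgeR). With both of these libraries left out it was 1.26 (adjusted p = 0.128 by edgeR). The sign of the Pdk4 value thus depended on single libraries of either group. Cpt1b, the muscle form of the carnitine enzyme and a gene outside the list, followed the same library, at 6.37 TPM in control replicate 3 and at 0.55 TPM or less elsewhere.

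Dicer makes mature miRNAs, and miR-33 is a liver miRNA reported to act on fatty acid oxidation genes. The mature RefSeq sequence (GRCm38.p6, chr15:82198127-82198147, plus strand) is printed with its seed, bases 2 to 8, in capitals. Below it stand the sites in the longest annotated 3′ UTR of each member that holds one, written as DNA with the match to the seed in capitals, and that of Crot, a peroxisomal carnitine acyltransferase from a companion list.
mmu-miR-33-5p: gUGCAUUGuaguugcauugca
Cpt1a: ctgagcagttacCAATGCAatttt
Hadhb: gcaatgccatttCAATGCActacc
Crat: cactgaggcagaCAATGCAtgtgg
Acadsb: aattaatttccaCAATGCAaatca
Pdk4: cttctcctttggCAATGCAaaatg
Crot: gtgttgcaaccaCAATGCAaagtc
The match occurred in 5 of 34 members and in 7.63% of 12612 tested genes with such a region. The log2 fold changes of those 5 were those given above, 0.23 for Cpt1a, 0.36 for Hadhb, 0.97 for Crat, −0.33 for Acadsb and −0.09 for Pdk4, with a median of 0.23, and 0 were called. Crot, at 146, 115 and 142 TPM in Dicer LKO and at 75.7, 130 and 166 TPM in the controls, had a value of 0.24 (interval −0.41 to 0.90). A match describes letters only. No miRNA level was analysed here, and miR-33 was the only miRNA examined here.

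Other genes of the pathway were read from 6 companion lists with 100 genes, of which 98 passed the filter on low counts and 3 were called. In the lists of other mitochondrial genes (18 tested) and other peroxisomal genes (21 tested) 0 were called by edgeR. DESeq2 called Nudt7 and the peroxisomal transporter gene Abcd2, and voom with sample weights called Abcd2. Echs1, a mitochondrial hydratase, had a value of −0.02, and Nudt7, a hydrolase of coenzyme A, one of −0.85 (adjusted p = 0.0947 by edgeR). Nudt7 was counted in the mitochondrial list although its product is peroxisomal, so it is not among the 21 peroxisomal genes. In the peroxisomal list Scp2, a sterol carrier and thiolase, had a value of −0.39 and Phyh, which starts the breakdown of phytanic acid, one of −0.42. Of the 21 peroxisomal genes 7 had all Dicer LKO libraries below all controls and 1 had them above. Of all 14314 genes tested, 2203 had them below and 1811 above, or 28.0% in both directions together. Among 21 regulators 0 were called. Creb3l3 and Rxra, the most abundant, had values of 0.09 and −0.18, and Ppara itself was at 30.9, 22.5 and 33.1 TPM in Dicer LKO and at 47.1, 42.7 and 21.4 TPM in the controls, overlapping (−0.22).

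Outside the member list, 3 genes of the companion lists were called higher, beside 106 of all 14314 genes tested. All of them were reported PPAR alpha targets (3 of 26 tested), and Cd36 also stood in the list of uptake and activation (1 of 16 tested). Cd36, a fatty acid transporter of the cell surface, was at 32.1, 31.9 and 45.3 TPM in Dicer LKO and at 8.19, 6.31 and 15.0 TPM in the controls (log2 fold change 2.14, SE 0.27, adjusted p = 0.0201 by edgeR). Cd36 is also expressed by macrophages, endothelial cells and muscle, whose markers are given above, and their part in its rise was not tested. Cyp4a14, a fatty acid hydroxylase, was at 15.1, 55.6 and 55.5 TPM in Dicer LKO and at 1.79, 0.45 and 1.13 TPM in the controls (5.35, SE 0.76, adjusted p = 0.0461), and it has close paralogs. Angptl4, a secreted inhibitor of lipoprotein lipase, was at 34.7, 50.1 and 44.8 TPM in Dicer LKO and at 16.9, 23.1 and 19.3 TPM in the controls (1.34, SE 0.22, adjusted p = 0.0398). In each of the 3 genes every Dicer LKO library lay above every control. With each library left out in turn the log2 fold changes stayed at 1.94 to 2.48 for Cd36, 5.01 to 5.90 for Cyp4a14 and 1.19 to 1.54 for Angptl4, while the calls were lost in some of these smaller fits. That of Cd36 was lost without Dicer LKO replicate 1 or 3 (adjusted p = 0.0550 and 0.0681), that of Cyp4a14 without replicate 2 or 3 of either group (0.0787 to 0.140), and that of Angptl4 without any one of the 6 libraries (0.0577 to 0.125). The Cyp4a14 call was also lost without a filter on low counts (0.0864), and those of Cd36 and Angptl4 on the log2(TPM + 1) scale (0.0567 and 0.0601). Examples of members that are also reported PPAR alpha targets were chosen after their values were seen and are not a full list. Of these, Cpt1a, Acadm and Ehhadh had values of 0.23, 0.11 and −0.03, Acot1 and Vnn1 of 0.41 and 0.87, and Acaa1b of −1.19. Whether the members differ from Cd36, Cyp4a14 and Angptl4 was not tested.

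**Figure D5:**
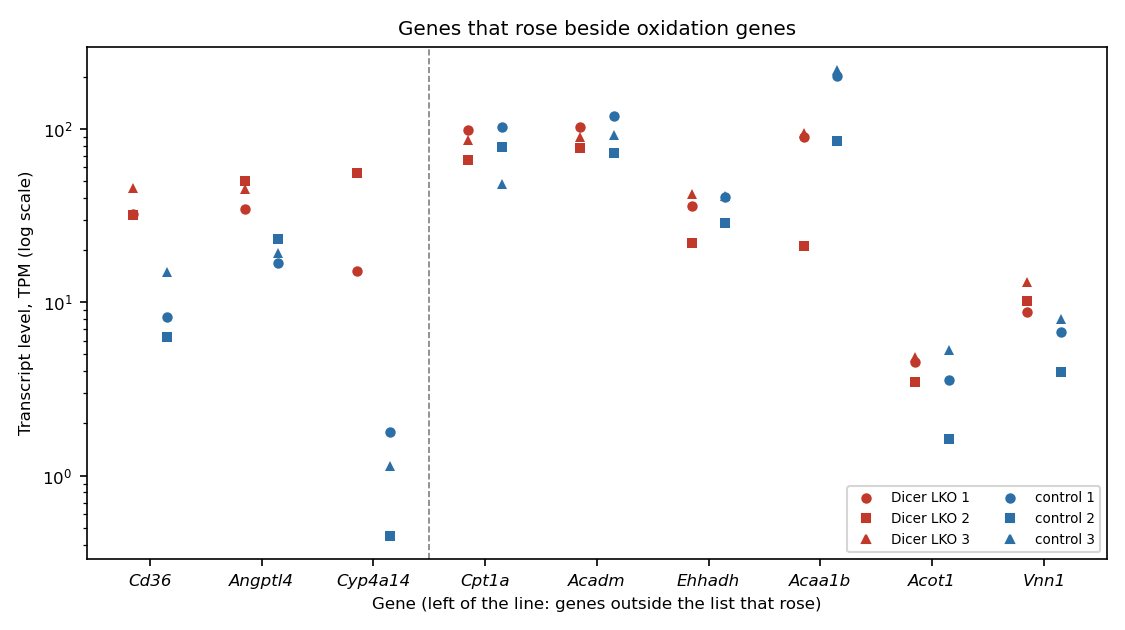
Level in each library, in TPM on a log axis, of Cd36, Angptl4 and Cyp4a14, which rose, and of the members Cpt1a, Acadm, Ehhadh, Acaa1b, Acot1 and Vnn1. The groups are apart for the genes left of the dashed line and for Vnn1, and overlap for the other members shown, which are chosen examples.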

How the data were processed

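The authors deposited, per library, RSEM expected counts (estimated reads per gene) and TPM values, per the file headers. CASAVA, Bowtie and the build hg19 are named, per the submitters' processing notes, although hg19 is human and the identifiers are mouse. Which mouse build, annotation and strand rule applied is not given in the sources used here. Of the identifiers, 99.56% matched GENCODE M21, the source of coordinates and of 3′ UTRs. RNA came from frozen liver, per the labels' protocols.

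Expected counts were rounded, filtered (filterByExpr), scaled by TMM and tested with edgeR 4.0.16 (quasi-likelihood, robust, genotype only, two-sided, n = 3 a group). Adjusted p-values run over all genes. The SE is the size of the log2 fold change over the square root of F. CPM uses TMM-scaled totals. Fits were tested on simulated data. Members and lists were chosen with earlier results of these data known. Values in every library were given for members called, for members with separated groups and a log2 fold change of at least 0.5 in size, for the 3 most abundant members, and for Cpt1a, Bdh1 and Acat1. Of each companion list the called members (up to 4), or else the 2 most abundant, were named, except in the ketone body list, whose single genes are not reported here. Other genes were chosen after their values were seen. Alternatives were other scalings, no filter, DESeq2 1.42.0, limma 3.58.1 (voom, and log2(TPM + 1)), each library left out, a replicate block, and 2 libraries left out together.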

Additional observations from a re-analysis of the deposited data

How the results depend on the processing

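The count of 185 called genes became 1117 with DESeq2, 422 without a filter, 103 with library totals, 717 with voom sample weights, 67 on the log2(TPM + 1) scale, 23 to 389 with each library left out in turn, and 44 without Dicer LKO replicate 2 and control replicate 3. Higher genes made up 57.3% of the calls, 44.2% with DESeq2, 30.8% with voom, 48.5% with library totals, 49.1% without a filter, 47.8% on the log2(TPM + 1) scale and 19.5% to 82.1% with a library left out. The members' median stayed between −0.04 and 0.24, and 0 members were called in 13 of 14 alternatives. Of 476 member values, 475 stayed on their side of the threshold, including those near 0 whose sign turned. Pdk4 with DESeq2, which gave no p for it, is counted among the 475. The 3 calls among companion genes became 10 with DESeq2, 7 with voom and 1 on the log2(TPM + 1) scale. They numbered 0 to 3 with a library left out, and 1 with Dicer LKO replicate 2 and control replicate 3 both left out. That pair was chosen after the data were seen. Without a filter the count stayed at 3, with Prkaa2 in place of Cyp4a14. Their median of −0.03 was −0.12 with library totals and −0.11 to 0.11 with a library left out. The replicate block gave 245 called genes and 1 called member, Acaa1b (−1.33, adjusted p = 0.0400), and the Cyp4a14 call was lost (adjusted p = 0.155). Same-numbered libraries correlated at 0.109, 0.065 and −0.096 in their deviations, and not every library correlated best with its own number. These correlations show no pairing by number, but they cannot exclude one, since each deviation is from a mean of 3 libraries. The cause of these differences was not tested. Acot2 had 47 to 113 counts a library, and Acot3 8 to 283.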
